A study of Mus musculus with 9 samples.

Results

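Glutathione S-transferases (GSTs) join the tripeptide glutathione to reactive, mostly fat-soluble molecules, which can then be pumped out of the cell. The cytosolic enzymes are dimers grouped by sequence into classes (alpha, mu, pi, theta, omega, zeta), and a separate family of membrane proteins, the microsomal GSTs, catalyses similar reactions. Hepatocytes are rich in these enzymes, and glutathione itself also binds copper(I) in the cytosol. The genes described here are 10 named family members: Gsta1, Gsta2, Gsta3 and Gsta4 of the alpha class, Gstm1, Gstm2 and Gstm3 of the mu class, Gstp1 of the pi class, Gstt1 of the theta class and the microsomal Mgst1. They were chosen by symbol, and all 10 were found among the 21878 symbols of the count table.

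The study made 9 RNA-seq libraries, 3 each of KO-ATP7B, KO-GFP and WT-GFP cells, from C57BL/6 hepatocytes of ATP7B-/- or WT mice that were reprogrammed to liver progenitors with a mix of growth factors and small molecules. Progenitors received a lentivirus for ATP7B or GFP, were differentiated again for 3 weeks and were then given CuCl2 for 24 hours, at 100 µM by the protocols and at the same figure in mM by the treatment field. Every group was exposed to copper and carried a vector. Titles and design text give the WT cells a GFP vector, whereas the growth protocol calls them WT-ATP7B.

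Only WT-GFP replicates 1 and 2 enter the results. The count table numbers its 9 columns without naming groups, and 2 of the numbers recur in the names and headers of files that belong to those 2 samples. Reading the other 7 columns in the order of the sample labels would be an inference from order alone, so they were not analysed here, and no value is given for cells without Atp7b or with the ATP7B vector. Whether the replicates stem from separate mice or cultures is not in the labels, so the tests measure only the spread between these 2 libraries, which may be technical. The libraries held 18532457 and 17821682 counts. The labelled cell type was checked on marker lists, given as the summed level in replicates 1 and 2. The hepatocyte markers summed to 2555 and 2355 FPKM (counts scaled to gene length and library total), with Alb highest at 929.6 FPKM and Pck1 lowest at 0.337 FPKM. Of these 14 markers 7 reached 10 FPKM, 3 lay between 1 and 10 FPKM and 4 were below 1 FPKM, with a median of 9.67 FPKM. The biliary and progenitor markers summed to 1699 and 1645 FPKM, with Cd24a highest at 649 FPKM and Cftr at 0 counts. Of these 10 markers 7 reached 10 FPKM, 2 lay between 1 and 10 FPKM and 1 was below 1 FPKM. Their median was 15.2 FPKM, above that of the hepatocyte markers. Of the mesothelial markers, which summed to 1207 and 1173 FPKM, Msln stood at 1159 FPKM and Lrrn4 at 0 counts. Endothelial markers (Kdr highest, Cdh5, Stab2, Lyve1 and Clec4g at 0 counts), stellate and fibroblast markers (Dcn highest, Lum and Pdgfrb at 0) and lymphocyte markers (Cd79a highest, Cd3e, Cd3d, Ms4a1 and Nkg7 at 0) each summed to less than 1 FPKM in both libraries. Macrophage markers summed to 16.7 and 21.9 FPKM, most of it Cd68, with Adgre1, Clec4f, Marco and Vsig4 at 0 counts. In such bulk libraries, fewer cells of a type and less RNA per cell cannot be told apart, and how the GST levels divide among hepatocyte-like and biliary-like cells was not tested.

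Some of the 10 genes have near-identical copies, and their coding sequences show how far reads could tell them apart. Each set below is the same stretch of coding sequence, 60 bases long, in the GENCODE M21 transcripts on GRCm38, printed 5′ to 3′ with capitals at the positions where the genes shown are not all the same. The first set runs from coding base 469 to 528 and is the stretch with the most differences among Gsta1, Gsta2 and their chromosome 9 neighbours Gm3776 and Gm10639, 2 protein-coding genes singled out after the data were seen.
Gsta1: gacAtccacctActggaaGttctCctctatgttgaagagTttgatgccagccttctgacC
Gm3776: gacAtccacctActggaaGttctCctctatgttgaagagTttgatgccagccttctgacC
Gsta2: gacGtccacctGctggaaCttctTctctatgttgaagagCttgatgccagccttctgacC
Gm10639: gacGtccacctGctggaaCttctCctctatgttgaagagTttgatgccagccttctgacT
Even here only 6 positions vary, and Gsta1 and Gm3776 are the same throughout. Over the 669 coding bases compared, 22 positions varied among the 4 genes.

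The pi and mu genes are shown as a contrast, each with a stretch of about average divergence. Gstp1 and its copy Gstp2 are given from coding base 37 to 96, and Gstm1, Gstm2 and Gstm3 from coding base 22 to 81.
Gstp1: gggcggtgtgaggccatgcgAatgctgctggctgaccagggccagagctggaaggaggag
Gstp2: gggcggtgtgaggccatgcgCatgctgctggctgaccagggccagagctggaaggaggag
Gstm1: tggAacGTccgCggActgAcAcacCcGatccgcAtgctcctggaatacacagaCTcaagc
Gstm2: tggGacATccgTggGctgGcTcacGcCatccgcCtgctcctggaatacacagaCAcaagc
Gstm3: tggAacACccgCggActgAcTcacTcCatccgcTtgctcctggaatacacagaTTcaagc
The pi stretch holds 1 differing position and the mu stretch 12. Coding identity was 99.7% between Gsta1 and Gm3776, 98.5% between Gsta2 and Gm10639, 98.1% between Gstp1 and Gstp2 and 97.5% between Gsta1 and Gsta2. It was 89.5% between Gstm1 and Gstm3 and 86.0% between Gstm1 and Gstm2.

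Sharing was then counted over whole transcripts, as the percentage of 100-base windows of each gene's principal transcript that also occur, letter for letter and on either strand, in a transcript of another gene. It was 81.8% for Gsta1, 52.8% for Gstp1 and 35.0% for Gsta2. It was 13.8% for Gstm3, 7.73% for Gstm1 and 0.622% for Gstm2, and no window of Gsta3, Gsta4, Gstt1 or Mgst1 was shared. With 50-base windows the shares were 89.7% for Gsta1, 62.3% for Gstp1 and 64.2% for Gsta2, and again 0 for the same 4 genes. For Gstm3, Gstm1 and Gstm2 they were 28.8%, 23.1% and 9.36%. Neither the read length nor the treatment of reads that fit several genes is given in the sources used here. The counts of Gsta1, Gsta2 and Gstp1 are therefore uncertain as values of single genes. Those of Gstm1, Gstm2 and Gstm3 are uncertain for the smaller parts that they share. The transcripts of Gsta3, Gsta4, Gstt1 and Mgst1 share no such window with any annotated transcript of another gene.

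**Figure D1:**
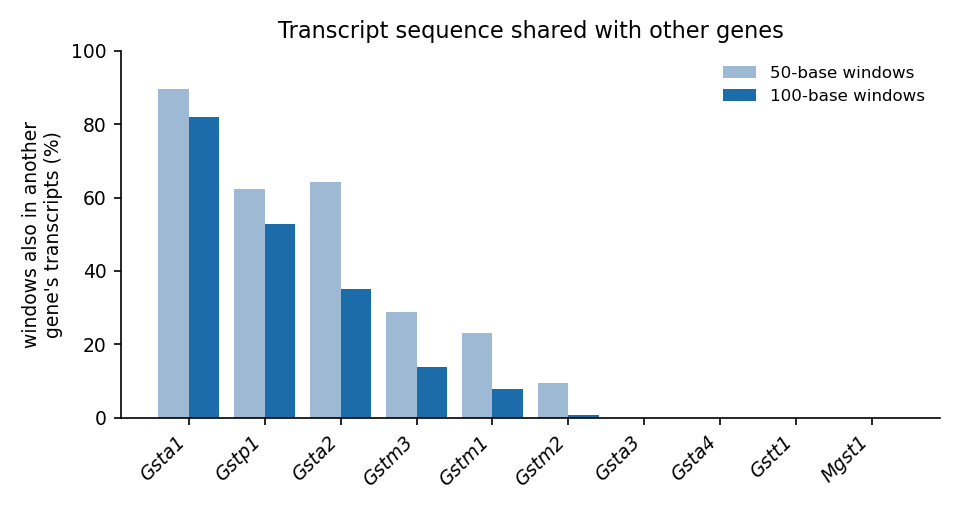
Percentage of 50-base (light bars) and 100-base (dark bars) windows of each gene's principal transcript that occur in transcripts of other genes. Gsta1, Gstp1 and Gsta2 have shares of 35.0% or more with 100-base windows, and Gsta3, Gsta4, Gstt1 and Mgst1 have none.

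Among the 10 genes, Gstm1, Gsta3 and Gstp1, of 3 different classes, had by far the highest levels in the copper-exposed WT-GFP cells. They made up 80.0% and 79.6% of the summed FPKM of the 10 genes in replicates 1 and 2, and each stood among the 81 highest symbols of the table. Of the 10 genes 8 reached 10 FPKM and none was below 1 FPKM, and their median was 107 FPKM (109.7 FPKM in replicate 1 and 105 in replicate 2). Over all 21878 symbols 5921 reached 10 FPKM, and the median was 0.782 FPKM. Together the 10 genes took 0.284% of all counts of replicate 1 and 0.276% of those of replicate 2, with 95% Wilson intervals from 0.281 to 0.286% and from 0.273 to 0.278%. All intervals allow for counting error alone and treat each count as a separate molecule. PCR copies cannot be told from separate molecules here, so the intervals may be too narrow even for counting error.

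Within the mu class, whose enzymes conjugate epoxides and other electrophiles, Gstm1 (ENSMUSG00000058135.12, chromosome 3, 108012255 to 108017973, minus strand, GRCm38) was the highest. Gstm1 stood at 657 FPKM in replicate 1 and 606 FPKM in replicate 2, a mean of 631 ± 36.4 FPKM (SD, n = 2) and rank 69 of all symbols. Its neighbour Gstm2 (ENSMUSG00000040562.12, chromosome 3, 107981702 to 107986453, minus strand) was at 152 and 159 FPKM. Gstm3 (ENSMUSG00000004038.9, chromosome 3, 107963696 to 107969283, minus strand) was at 29.8 and 26.8 FPKM. The 3 neighbouring genes thus had well separated levels in both libraries, in the order Gstm1, Gstm2, Gstm3. As a class they gave 35.4 ± 0.872% of the summed FPKM of the 10 genes (SD, n = 2).

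The alpha class, which also reduces lipid hydroperoxides, consisted mostly of Gsta3 (ENSMUSG00000025934.15, chromosome 1, 21240589 to 21265661, plus strand). Gsta3 was at 619.6 FPKM in replicate 1 and 613 FPKM in replicate 2, a mean of 616 ± 4.73 FPKM. It also had the most counts of the 10 genes, with 998 CPM (counts scaled to the library total alone) in replicate 1 (95% exact interval 983 to 1012) and 987 CPM in replicate 2 (972 to 1002). The other alpha genes lie together on chromosome 9 and were at much lower levels. Gsta4 (ENSMUSG00000032348.6, 78182774 to 78209349, plus strand), whose product prefers 4-hydroxynonenal and similar lipid peroxidation products, was at 85.8 and 77.9 FPKM. Gsta1 (ENSMUSG00000074183.3, 78230656 to 78242684, plus strand) was at 53.5 and 54.9 FPKM, and Gsta2 (ENSMUSG00000057933.10, 78331018 to 78355788, minus strand) at 6.75 and 9.51 FPKM. The 4 alpha genes gave 33.0 ± 0.215% of the summed FPKM of the 10 genes. The order of the alpha and mu classes depended on the gene lengths: without length, alpha genes held 0.113 ± 0.00102% of all counts and mu genes 0.106 ± 0.0047%, the reverse of their order in FPKM. An antisense gene that GENCODE places over Gsta3, Gm28836, is not among the symbols of the count table, and no source used here gives the strand setting of the counts.

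Gstp1, the pi class enzyme, (ENSMUSG00000060803.6, chromosome 19, 4035407 to 4037985, minus strand) was at 586 FPKM in replicate 1 and 592 FPKM in replicate 2. These levels are close to those of Gsta3 and Gstm1, but the ranges of the libraries did not overlap with either. The copy Gstp2 had 27 and 23 counts beside 8082 and 7843 for Gstp1, so 99.7% of the counts of the pair were given to Gstp1 in each library. Mgst1, the membrane-bound enzyme of the endoplasmic reticulum and outer mitochondrial membrane (ENSMUSG00000008540.11, chromosome 6, 138140316 to 138156755, plus strand), was at 134 and 132 FPKM. Gstt1, the theta class enzyme that acts on small halogenated compounds (ENSMUSG00000001663.10, chromosome 10, 75783813 to 75798584, minus strand), was the lowest at 3.87 and 4.45 FPKM, from 125 and 138 counts. Of the summed FPKM of the 10 genes, Gstp1 gave 25.6 ± 0.580%, Mgst1 5.78 ± 0.0577% and Gstt1 0.181 ± 0.0205% (SD, n = 2). The mean of Gstm1 was 152 times that of Gstt1. In the order of mean FPKM, which ran Gstm1, Gsta3, Gstp1, Gstm2, Mgst1, Gsta4, Gsta1, Gstm3, Gsta2, Gstt1, only the neighbours Gstm1 and Gsta3 had ranges that overlapped between the libraries.

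**Figure D2:**
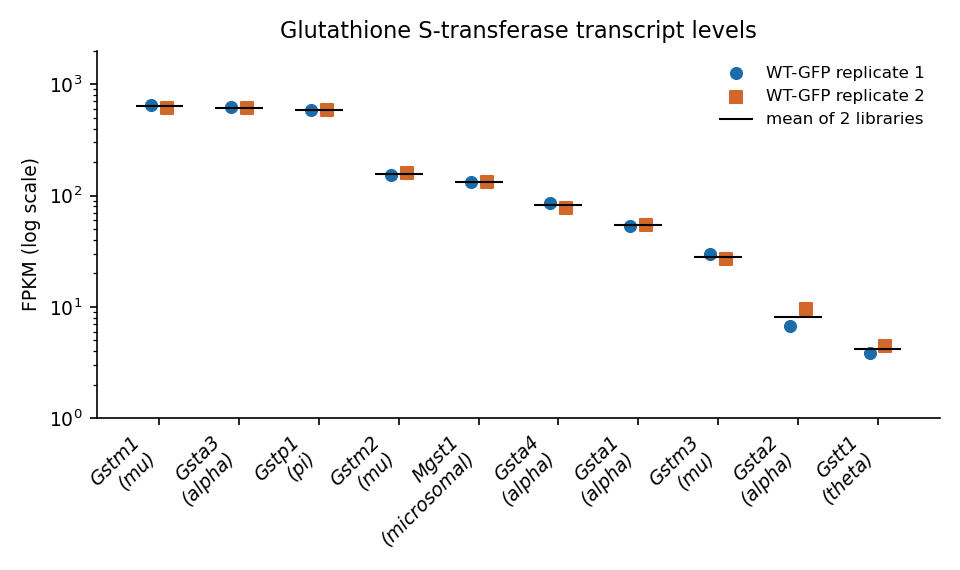
FPKM of each gene on a log scale in WT-GFP replicate 1 (circles) and replicate 2 (squares), with the mean as a line and the enzyme class under the symbol. Gstm1, Gsta3 and Gstp1 lie between 586 and 657 FPKM, and Gsta2 and Gstt1 lie below 10 FPKM.

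The order of the 3 leading genes depended on the gene length used. The lengths behind the deposited FPKM were 1610 bases for Gsta3, 1372 for Gstm1 and 744 for Gstp1. Dividing the same counts by the length of the GENCODE principal transcript gave recomputed FPKM of 681 ± 5.23 for Gsta3, 672 ± 38.8 for Gstm1 and 534 ± 3.43 for Gstp1 (SD, n = 2), which puts Gsta3 and Gstm1 first with overlapping values. Dividing by all merged GENCODE exons, which are 4344 bases for Gsta3, gave 588 ± 33.9 for Gstm1, 283 ± 1.82 for Gstp1 and 228 ± 1.75 for Gsta3. The positions of the other 7 genes, from Gstm2 in position 4 to Gstt1 in position 10, were the same under all 3 lengths. Gstt1 rose from 4.16 ± 0.405 FPKM to 6.99 ± 0.681 with the principal transcript, whose 1037 bases are shorter than the 1742 behind the deposited value.

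**Figure D3:**
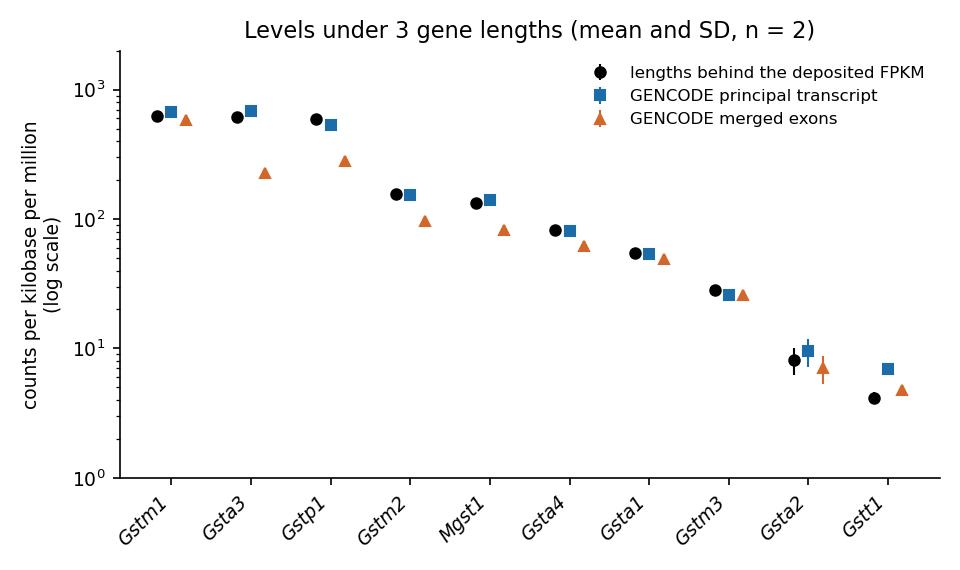
Counts per kilobase and library total (FPKM scale, log axis) for each gene, with the length behind the deposited FPKM (circles), the GENCODE principal transcript (squares) and the merged GENCODE exons (triangles), as mean and SD of 2 libraries. Gsta3 and Gstp1 fall to 228 and 283 with merged exons, and the genes from Gstm2 to Gstt1 keep their order.

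Most of the 10 genes were not called as different between the 2 libraries by a test against counting error. Counts were compared per gene by a two-sided exact binomial test given the library totals, with Benjamini-Hochberg adjustment over the 12302 genes that had a mean of at least 10 counts. This compares 2 libraries of 1 group, not conditions. It called 2 of the 10 genes, beside 14.8% of all genes tested, with 1 higher in replicate 2 (8.38% of all genes) and 1 lower (6.38%). The count is too small to set the 10 genes apart from that background. The share called rose with depth, from 9.11% of genes with a mean of 100 to 1000 counts to 24.7% at 1000 to 10000. It was 67.0% at 10000 counts or more, so shares over all genes are not matched for depth.

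The gene called lower was Gstm1, with 16707 counts in replicate 1 and 14806 in replicate 2. These are 901 CPM (95% exact interval 888 to 915) and 831 CPM (817 to 844), which is -0.12 as a log2 ratio (adjusted p = 4.81e-11 by the exact binomial test). Among the 212 genes with a mean of 10000 counts or more, 67.0% were called, so a call was common at this depth. Their log2 ratios had an SD of 0.096 and a median size of 0.064, both smaller than the size of the Gstm1 ratio. Of the 14 hepatocyte markers 6, among them Alb, were called lower in replicate 2 and 0 higher (also 6 and 0 at an unadjusted p under 0.05), beside 6.38% and 8.38% of all genes, and 5 of the 14 had ratios above 0. Their part in the Gstm1 difference was not tested. Gsta3, the other gene in that range, differed by -0.02 on the log2 scale (adjusted p = 0.572 by the exact binomial test).

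The gene called higher was Gsta2, with 127 counts in replicate 1 and 172 in replicate 2, or 6.85 CPM (95% exact interval 5.71 to 8.15) and 9.65 CPM (8.26 to 11.2). Its log2 ratio was 0.49 (adjusted p = 0.0306 by the exact binomial test), beside an SD of 0.18 over the 5795 genes with a mean of 100 to 1000 counts, of which 9.11% were called. Its closest copy, Gm10639 (ENSMUSG00000074179.11, chromosome 9, 78289923 to 78305525, plus strand), moved in the same direction by more, from 26 to 72 counts (log2 ratio 1.51, adjusted p = 4.26e-05 by the exact binomial test). Together the pair had 153 and 244 counts (log2 ratio 0.73), of which Gsta2 held 83.0% and 70.5%, a difference in division that was not tested. Gsta1 and Gm3776 (ENSMUSG00000111709.1, chromosome 9, 78257129 to 78269166, plus strand), the other near-identical pair, had 1109 and 1089 counts together, of which Gsta1 held 76.9% and 77.3%. The log2 ratio of that sum was 0.03, and that of all 4 genes summed, with 1262 and 1333 counts, was 0.14. The part that the assignment of shared reads plays in the Gsta2 difference was not tested.

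The other 8 genes had log2 ratios from -0.15 for Gstm3 to 0.20 for Gstt1. Gsta4 came nearest to a call, with 1524 and 1330 counts (log2 ratio -0.14, adjusted p = 0.0616 by the exact binomial test). The tightest were Mgst1, Gstp1 and Gsta3, whose SD was 0.623%, 0.643% and 0.767% of the mean FPKM, and the widest was Gsta2 at 24.0%. Without a test passed these values do not show that the 8 genes were equal in the libraries.

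**Figure D4:**
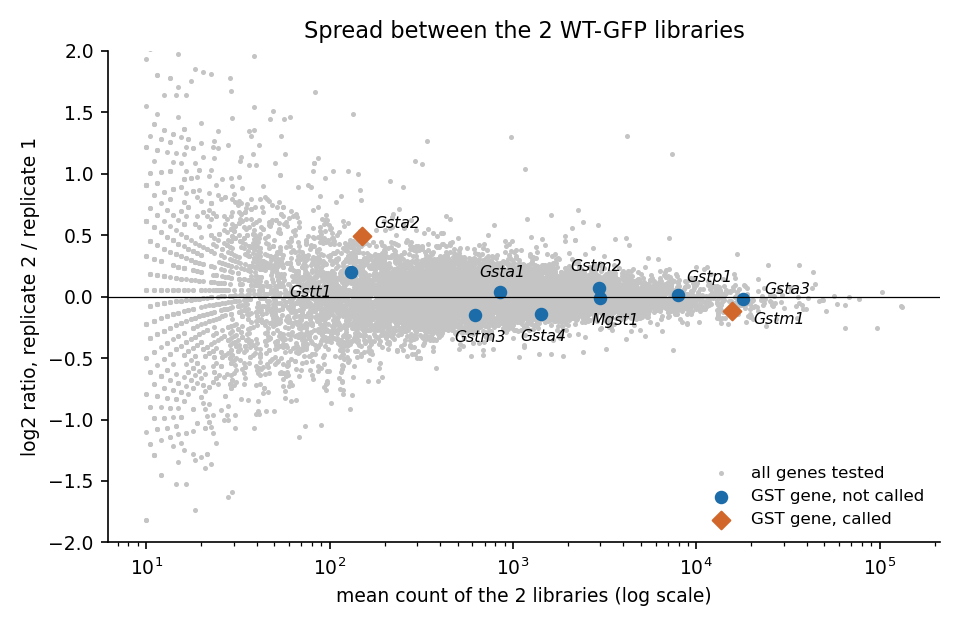
Log2 ratio of replicate 2 to replicate 1 against mean count (log scale) for all 12302 genes tested (grey) and the 10 GST genes (blue circles not called, orange diamonds called by the exact binomial test), with 15 genes outside the axis. Gsta2 lies at 0.49 near the upper edge of genes with similar counts, and Gstm1 at -0.12 lies among the spread of abundant genes.

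Most of the wider family was expressed at low levels, with the omega class gene Gsto1 as the main exception. Of 21 further glutathione transferase genes and relatives 19 were in the table, of which 3 reached 10 FPKM, 9 lay between 1 and 10 FPKM and 7 were below 1 FPKM, with a median of 3.23 FPKM. The alpha copies Gm3776 and Gm10639 are not in this list. They were at 15.8 ± 0.0372 FPKM and 3.11 ± 2.13 FPKM (SD, n = 2). Gsto1, whose product reduces dehydroascorbate and removes glutathione from proteins, was at 745 ± 22.2 FPKM (SD, n = 2). By deposited FPKM that is above every one of the 10 genes. Without length, Gsto1 had a mean of 879 CPM, below Gsta3 at 992 CPM and near Gstm1 at 866 CPM. Its level under other gene lengths was not computed. The microsomal gene Mgst3 was at 79.5 ± 2.64 FPKM and the mu gene Gstm5 at 14.2 ± 1.14 FPKM.

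The remaining mu genes of the chromosome 3 cluster were Gstm7 at 7.06 ± 0.823 FPKM, Gstm6 at 3.95 ± 0.0219 FPKM and Gstm4 at 3.23 ± 0.206 FPKM. Gstz1, the zeta class enzyme of tyrosine breakdown, was at 8.56 ± 0.954 FPKM, Gstcd at 9.14 ± 0.184 FPKM, Mgst2 at 5.65 ± 0.917 FPKM and Gsto2 at 3.23 ± 0.134 FPKM. The theta genes Gstt3 and Gstt2 were at 1.94 ± 0.154 FPKM and 0.147 ± 0.0272 FPKM, so that Gstt1, low as it was, was the highest theta gene of the table. Gstp2 was at 1.83 ± 0.156 FPKM. Gstk1, the mitochondrial and peroxisomal kappa enzyme, was at 0.535 ± 0.182 FPKM, from 7 and 11 counts. The prostaglandin synthase genes Hpgds and Ptges were at 0.392 ± 0.0651 FPKM and 0.233 ± 0.0896 FPKM. The genes Gstt4, Ltc4s (leukotriene C4 synthase) and Alox5ap (which presents arachidonate to 5-lipoxygenase) had 0 counts, which by a floor of 3 counts per library allows up to 0.162 CPM in replicate 1 and 0.168 CPM in replicate 2. Between the libraries, Gsto1 was the only one of 14 tested genes of this list to be called, beside 14.8% of all genes, with 16632 and 15333 counts (log2 ratio -0.06, adjusted p = 0.00258 by the exact binomial test), and 0 were called higher (1, Mgst2, at an unadjusted p under 0.05).

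Genes that make glutathione were expressed alongside the transferases. All 11 genes of glutathione synthesis and cysteine supply were above 1 FPKM and 8 reached 10 FPKM (median 16.8 FPKM). Gclc, the catalytic subunit of the rate-limiting glutamate-cysteine ligase, was at 698 ± 34.5 FPKM (SD, n = 2). By deposited FPKM that is above each of the 10 transferases in both libraries. The level of Gclc under other gene lengths was not computed. The modifier subunit Gclm was at 119.7 ± 13.2 FPKM. Slc3a2, the heavy chain of the cystine importer, was at 107 ± 5.73 FPKM, and Cbs, of transsulfuration, was lowest at 3.96 ± 1.18 FPKM. By the exact binomial test 6 of these 11 genes were called higher in replicate 2 and 0 lower (7 and 0 at an unadjusted p under 0.05), against 8.38% and 6.38% of all genes. They were Gclc, Gclm, Slc3a2 and Cbs, and also Slc7a11, the cystine importer itself, and Oplah, which recycles 5-oxoproline, these last 2 named after their values were seen. Slc7a11 went from 2379 to 3426 counts (log2 ratio 0.58, adjusted p = 1.08e-49 by the exact binomial test) and Cbs from 159 to 235 (log2 ratio 0.62, adjusted p = 0.000577). Gclc, with 43763 and 45135 counts, differed by 0.10 on the log2 scale. The shares over all genes are not matched for depth. Of all genes with a mean of 10000 counts or more, as Gclc and Slc3a2 have, 67.0% were called in either direction. At 1000 to 10000 counts, the range of Gclm and Slc7a11, that share was 24.7%. The list had a median log2 ratio of 0.11, beside 0.00 for the 10 transferases and 0.01 for all genes tested. The difference between the lists was not tested.

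Of 14 glutathione and thiol redox genes 9 reached 10 FPKM (median 52.4 FPKM). Gpx4, the peroxidase of membrane lipids, was at 346 ± 19.0 FPKM, Prdx6 at 298 ± 7.62 FPKM and thioredoxin (Txn1) at 214 ± 13.1 FPKM, while Gpx7 had 0 counts. Of the 13 that could be tested 4 were called higher in replicate 2 and 1 lower, beside 8.38% and 6.38% of all genes tested. Among 8 conjugate export genes 7 reached 10 FPKM (median 28.8 FPKM), with Abcc4 at 87.3 ± 1.75 FPKM, Abcc3 at 64.0 ± 2.76 FPKM and Abcc5 at 49.6 ± 0.996 FPKM highest and Abcc6 lowest at 0.260 ± 0.0725 FPKM. Here 2 of 8 genes were called higher and 1 lower, beside the same shares of all genes.

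Enzymes that trim glutathione conjugates to mercapturates were mostly at low levels. Only 2 of 9 such genes reached 10 FPKM, 6 stayed below 1 FPKM and the median was 0.241 FPKM. The aminoacylases Acy3 and Acy1 were at 13.6 ± 1.59 FPKM and 11.2 ± 0.446 FPKM, and Ggt7 followed at 1.41 ± 0.161 FPKM. Ggt5 had 0 counts. Ggt1, the gamma-glutamyl transferase that opens the pathway and a gene chosen after its values were seen, had 16 and 6 counts. The exact binomial test called 0 of the 6 genes tested, beside 14.8% of all genes, and 1, Acy3, was lower in replicate 2 at an unadjusted p under 0.05.

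Regulators known to act on GST genes were led by Nfe2l1 at 93.7 ± 3.32 FPKM, Nfe2l2 at 76.2 ± 0.806 FPKM and Cebpb at 59.3 ± 1.05 FPKM (SD, n = 2). Nfe2l2 encodes NRF2, which binds antioxidant response elements with a small MAF protein. Of 15 regulators 11 reached 10 FPKM. The lowest was Nr1i3, the xenobiotic receptor CAR, at 0.0332 ± 0.0241 FPKM from 1 and 3 counts. Of the 14 tested 5 were called higher in replicate 2 (8.38% of all genes tested) and 2 lower (6.38%), and Nfe2l2 was not called (adjusted p = 0.766 by the exact binomial test at a log2 ratio of -0.02). Called higher were the small MAF genes Maff (log2 ratio 0.32), Mafk (0.30) and Mafg (0.16), and Bach1 and Rxra. Nfe2l1 and Arnt were called lower. All of these but Nfe2l1 were named after their values were seen. At a mean of 1000 to 10000 counts, the range of these genes, 24.7% of all genes were called. The core of the antioxidant response element, TGACNNNGC, was searched on both strands in RefSeq windows on GRCm38.p6 that run from 250 bases before to 50 bases after each start site and were found for 9 of the 10 genes. Gsta3 held 1 match, whose leftmost base is at position -121 from the start site, on the strand of the gene. Mgst1 held 1 match in 1 of its 2 windows, at position -56 on the opposite strand. These are 2 of 9 genes, beside 3781 of the 27025 genes in the table of windows, and a match is a description of the letters and not of a bound site. No other form of the element and no sequence outside the windows was searched, so a gene without a match may still have such an element.

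**Figure D5:**
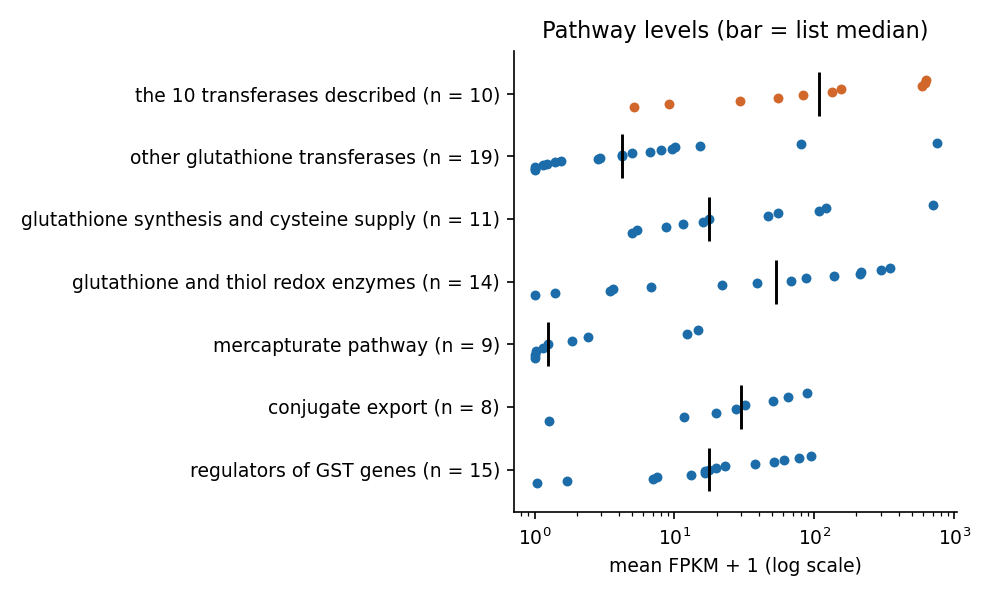
Mean FPKM + 1 on a log scale for the 10 transferases described (orange) and for the genes of 6 related lists (blue), 1 point per gene with the list median as a bar. The 10 transferases have a median of 107 FPKM, the other transferases 3.23 FPKM and the mercapturate genes 0.241 FPKM.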

How the data were processed

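The authors deposited raw counts per gene symbol for 9 numbered columns, of which 2 could be tied to a sample (WT-GFP replicates 1 and 2) and 7 were not used. They also deposited FPKM values for these 2 samples, per the file headers. HISAT2 2.2.1.0 appears in the submitters' processing notes, as do mm10 and hg38, with nothing on how each build was used. No source used here gives the counter, annotation or strand setting. Lengths implied by counts and FPKM were whole within 0.01 bases for 100% of 15545 genes with a count, so the FPKM are the same counts rescaled. The 3 planned comparisons between groups (edgeR) were not run for want of mapped columns.

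Levels are means ± SD of 2 libraries. The exact binomial test used scipy 1.17.1 and added 0.5 counts for log2 ratios, and was tested on simulated data. The simulated counts held counting error alone, so they do not show how the test behaves where libraries differ by more. TMM factors came from edgeR 4.0.16, and gene positions, lengths and transcripts from GENCODE M21. Coding sequences were aligned globally with Biopython 1.88. Promoter windows are from RefSeq. The genes and lists were chosen with earlier results of these data known. Named genes are all 10, the further transferases, and per pathway list the 3 highest, the lowest and those at 0 counts, with the highest and lowest marker of each marker list. Alternatives were other gene lengths, TPM, TMM scaling, other count filters and single libraries.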

Additional observations from a re-analysis of the deposited data

How the results depend on the processing

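The number of genes at 10 FPKM or more was 8 with either library alone and with both GENCODE lengths. With the same cut of 10 on the TPM scale it was 10. TPM values were larger than the FPKM of the same genes, so that cut was looser. Gstt1, for example, had a mean of 4.16 FPKM and of 10.8 TPM. The median level of the 10 genes was 107 FPKM as reported, 105 to 109.7 FPKM with 1 library alone, 110.5 with principal transcript lengths (added after the data were seen), 71.8 with merged exon lengths and 279 TPM. Their joint share of counts was 0.280%, and 0.294% when the 10 most abundant genes of all were left out of the total. TMM scaling called 3 genes between the libraries, adding Gsta4 (adjusted p = 0.0363, exact binomial test) to Gstm1 and Gsta2, while no filter on counts and a minimum of 100 counts each called Gstm1 and Gsta2. Of the 10 genes 0 reached a log2 ratio of 0.5 in size, with Gsta2 at 0.49. Over all genes, TMM scaling turned 1031 higher and 785 lower calls into 836 and 958. Sums over near-identical copies were also added after the data were seen. No paired analysis was possible because the mapped libraries all belong to WT-GFP, and the DESeq2, filter and block alternatives of the group comparisons were not run for the same reason.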
